A study of Homo sapiens with 4 samples.

Results

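The replication-dependent histone genes were followed in HaCaT cells, an established human keratinocyte line, after knockdown of ALKBH5, a demethylase that removes m6A (N6-methyladenosine) from RNA. The members were the protein-coding rows whose gene name begins with HIST1H, HIST2H, HIST3H or HIST4H, and there were 71 of them among the 58735 genes listed. RNA-seq of poly-A RNA was available for 4 libraries, all of HaCaT cells: 2 siControl libraries (genotype given as WT, transfected with a normal control siRNA) and 2 siALKBH5 libraries (genotype given as ALKBH5 knockdown, transfected with an siRNA against ALKBH5). The labels do not say which ALKBH5 siRNA was used, nor whether the libraries of a group came from separate cultures, so the p-values measure only the spread between these libraries, which may be technical. The question here is how the histone genes, by type and by gene cluster, differed between siALKBH5 and siControl.

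Replication-dependent histones supply the protein spools of new chromatin when DNA is copied: H2A, H2B, H3 and H4 are the core histones around which DNA is wound, and H1 is the linker histone that binds where DNA enters and leaves the core. Their genes lie in clusters, are switched on by NPAT in S phase and mostly have no introns, and the mRNA of most of them ends after a conserved stem-loop, bound by SLBP, in place of a poly-A tail. Poly-A selection therefore captures such mRNA poorly, although several of these genes are known also to give mRNA with a poly-A tail. All levels and differences below describe that poly-A-selected RNA.

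The stem-loop is shown first because it decides how these mRNAs normally end. In the GENCODE 29 transcripts (GRCh38), a search on the transcript strand found a histone stem-loop downstream of the stop codon in 32 of the 71 members. Anywhere in a transcript, it was found in 0.239% of all 19659 protein-coding genes (47 genes, these 32 included). In the members it began between 22 and 67 bases after the stop codon, and between 6 and 1917 further bases of transcript were annotated after it. No sequence after the stop codon is annotated for the 33 members whose gene model holds the coding sequence only, so the search could not find a stem-loop there. The same holds for HIST1H2BA and HIST1H3J, whose longer models add no bases after the stop codon. The sites below are written 5′ to 3′ with the 16 bases of the stem-loop in capitals, and they come from core histone members described further on, with HIST2H4A shown beside its near-identical copy HIST2H4B.

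HIST1H2AC: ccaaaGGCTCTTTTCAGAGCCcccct
HIST3H2A: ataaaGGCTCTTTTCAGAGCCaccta
HIST1H2BD: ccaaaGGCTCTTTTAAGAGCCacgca
HIST1H3E: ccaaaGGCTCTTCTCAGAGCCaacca
HIST1H4I: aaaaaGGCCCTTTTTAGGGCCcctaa
HIST1H4H: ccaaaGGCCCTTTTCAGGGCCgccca
HIST1H4E: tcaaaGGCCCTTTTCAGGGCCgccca
HIST2H4B: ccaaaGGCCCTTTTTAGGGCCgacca
HIST2H4A: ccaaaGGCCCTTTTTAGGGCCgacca

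These sites lie at chr6:26124664-26124689 (plus strand) for HIST1H2AC, chr1:228457364-228457389 (minus strand) for HIST3H2A, chr6:26158582-26158607 (plus strand) for HIST1H2BD, chr6:26225591-26225616 (plus strand) for HIST1H3E, chr6:27139649-27139674 (plus strand) for HIST1H4I, chr6:26285126-26285151 (minus strand) for HIST1H4H, chr6:26204996-26205021 (plus strand) for HIST1H4E, chr1:149860764-149860789 (minus strand) for HIST2H4B and chr1:149833027-149833052 (plus strand) for HIST2H4A. The first arm of the stem read GGCCC in all 8 H4 members with a stem-loop and GGCTC in all 24 H2A, H2B and H3 members with one. HIST2H4A and HIST2H4B, near-identical copies of an H4 gene, carried the same site. Of the members with a stem-loop, 23 had at least 100 annotated bases after it, such as HIST1H2AC with 1128, HIST1H4H with 1655 and HIST3H2A with 390.

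For ALKBH5 itself, siControl gave 1512 and 1576 counts, against 956 and 816 for siALKBH5. Scaled to counts per 1000000 (CPM, with TMM factors over all genes), it was at 93.7 and 87.5 CPM in siControl and at 51.1 and 49.5 CPM in siALKBH5, 55.5% of the siControl mean, with a log2 fold change of -0.85 ± 0.05 (SE). The libraries held 16017502 to 18837807 counts with TMM factors of 0.992 to 1.008, and mitochondrial genes took 10.2% of counts in both siControl libraries and 9.63% to 9.64% in the siALKBH5 libraries. All 7 keratinocyte markers passed the filter, with KRT5 and KRT14 the highest, and summed to 16302 and 15939 CPM in siControl and 21112 and 21128 CPM in siALKBH5. Of the 7, 2 were higher (KRT5, log2 fold change 0.68, and KRT14, 0.22) and 3 lower (TP63, -0.09, KRT17, -0.08, and ITGB4, -0.06), LAMB3 (-0.03) and CDH1 (-0.06) were not called, and the median was -0.06. DESeq2 called 2 of the 7 higher and 1 lower. Markers of other cell types summed to 17.9 to 21.1 CPM for the 5 fibroblast genes and 2.42 to 4.22 for the 4 leukocyte genes. The 3 endothelial genes summed to 32.5 to 35.4 CPM and the 4 melanocyte genes to 2.72 to 3.88. COL1A1, which was not called, made up most of the fibroblast sum at 16.2 to 17.2 CPM. COL1A2, PDGFRB and TYR were at 0 in all 4 libraries. Within these lists DCN (log2 fold change -1.25) and CDH5 (-0.69) were lower and VWF (0.51) and CD14 (0.64) higher by the edgeR test used for the histone genes. DESeq2 called 0 of the leukocyte genes, CD14 among them. The part of these marker genes in the histone result was not tested.

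All 71 members together held 7555 and 8568 counts in siControl, against 6506 and 5785 in siALKBH5, which is 0.0472% and 0.0479% of all counts in siControl and 0.0345% and 0.0348% in siALKBH5. The sum was 468 and 476 CPM in siControl and 348 and 351 CPM in siALKBH5, so both siALKBH5 libraries lay below both siControl libraries. The siALKBH5 mean (349 ± 2.26 CPM, SD, n = 2) was 74.1% of the siControl mean (472 ± 5.16 CPM, SD, n = 2), a log2 ratio of -0.43, and the ratio was -0.43 between the libraries of replicate 1 and -0.44 between those of replicate 2. In bulk RNA, fewer cells that make these mRNAs and less of the mRNA per cell cannot be told apart. No p is given for a sum over members.

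Each of the 5 histone types was lower in both siALKBH5 libraries than in both siControl libraries. H2A, the type with the most counts, was summed to 190 and 192 CPM in siControl and 135 and 135 CPM in siALKBH5, 70.8% of the siControl mean. H2B followed with 153 and 156 CPM in siControl and 123 and 121 CPM in siALKBH5, 78.7% of the siControl mean. The linker histone H1 was at 53.5 and 54.3 CPM and then at 39.4 and 41.9 CPM, or 75.3%. This sum is nearly that of a single gene: HIST1H1C had a siControl mean of 52.8 CPM, of 53.9 CPM for H1. H4 stood at 42.2 and 43.1 CPM in siControl and 27.4 and 30.4 CPM in siALKBH5, or 67.8%, and H3 at 29.2 and 30.8 CPM and then 23.1 and 23.5 CPM, or 77.6%. The order of the types by summed CPM was the same in all 4 libraries. Of the histone counts, H2A held 40.6% and 40.3% in siControl and 38.9% and 38.4% in siALKBH5, and H2B 32.8% and 32.8% and then 35.2% and 34.3%. H1 held 11.4% and 11.4% and then 11.3% and 11.9%. H4 held 9.01% and 9.06% and then 7.87% and 8.66%, and H3 6.23% and 6.48% and then 6.64% and 6.69%. Whether the types differed from each other in their response was not tested.

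**Figure D1:**
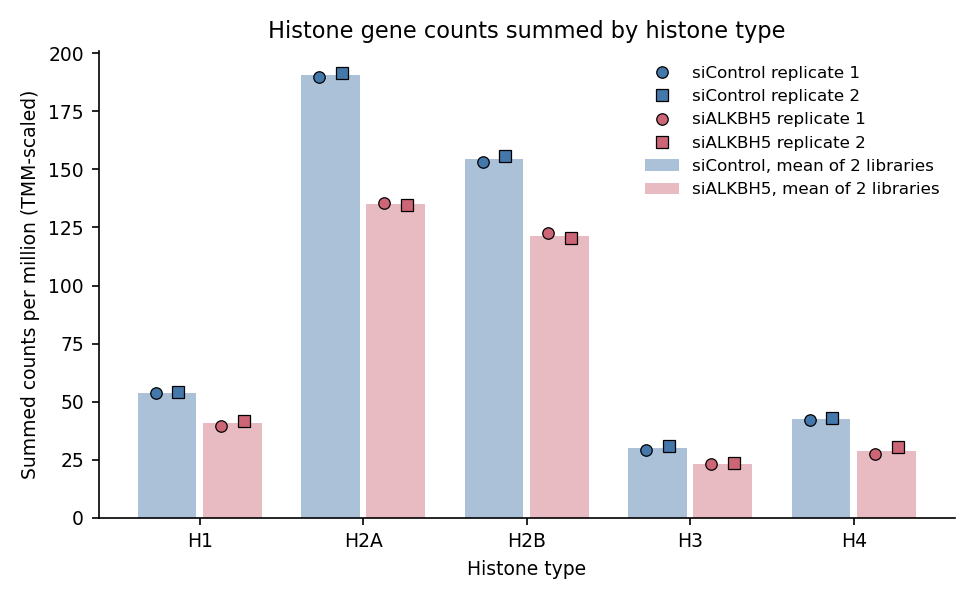
Counts of all members summed by histone type, in TMM-scaled CPM on the y axis, for siControl (blue) and siALKBH5 (red); bars are means of 2 libraries and the points are the libraries. In each type both siALKBH5 points lie under both siControl points, with the siALKBH5 mean between 67.8% (H4) and 78.7% (H2B) of the siControl mean. The H1 sum is nearly that of HIST1H1C alone.

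By cluster, the 55 genes of HIST1, the large cluster on chromosome 6, summed to 362 and 372 CPM in siControl and 265 and 269 CPM in siALKBH5, 72.9% of the siControl mean. The 12 genes of HIST2 on chromosome 1 had 34.0 and 34.5 CPM in siControl and 28.7 and 28.2 CPM in siALKBH5, or 83.0%, and the 3 genes of HIST3, also on chromosome 1, had 70.7 and 66.0 CPM and then 51.8 and 51.6 CPM, or 75.6%. In those clusters the groups did not overlap, but HIST2 and HIST3 each rested mostly on a single gene. In siControl, HIST2H2BE had a mean of 26.15 CPM, of 34.24 CPM for HIST2. HIST3H2A had 63.5 CPM, of 68.35 CPM for HIST3. HIST4H4, the only HIST4 member, lies on chromosome 12 and had 1.61 and 3.22 CPM in siControl and 2.14 and 2.002 CPM in siALKBH5, where the groups overlapped.

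Counts were concentrated in few members. The 5 with the highest counts, HIST1H2AC, HIST3H2A, HIST1H2BD, HIST1H1C and HIST1H2BK, held between 65.1% and 66.5% of the histone counts of each library. Without them the sum of the other 66 members was 157 and 160 CPM in siControl and 121 and 122 CPM in siALKBH5, 76.8% of the siControl mean. At the other end, 13 members were at 0 in every library and 25 had at most 3 counts in every library.

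A filter on low counts left 30 members to be tested among 15075 genes, and the other 41 never exceeded 15 counts in a library. Those 41 summed to 4.83 and 5.99 CPM in siControl and 4.60 and 5.10 CPM in siALKBH5, with overlapping groups. The 3 highest of them were HIST2H4A (8 and 13 counts in siControl, 8 and 9 in siALKBH5), HIST1H3B (15 and 9, then 8 and 3) and HIST2H3D (6 and 10, then 10 and 7). Some zeros lie where genes overlap: HIST1H2AK is contained in an exon of HIST1H2BN on the opposite strand, so the settings of the counting, which are not stated for strand or for reads of several places, bear on its count.

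Of the 30 members tested, 12 were lower in siALKBH5 at an adjusted p under 0.05 in edgeR's quasi-likelihood test with Benjamini-Hochberg adjustment over all 15075 genes, and 0 were higher, also at an unadjusted p under 0.05. Over all genes tested, 17.3% were lower and 19.3% higher by the same rule, against 40.0% of these members lower. DESeq2 called 9 of the 27 members that it gave an adjusted p lower and 0 higher, with 10.4% of all genes given an adjusted p called lower. The median log2 fold change was -0.39 over the 30 members and -0.008 over all genes tested, and 29 of the 30 were below 0, as a description of members that passed a filter. In CPM, both siALKBH5 libraries lay below both siControl libraries in 21 of the 30, which holds for 33.5% of all genes tested, and no member lay above. With the added threshold of a log2 fold change of at most -1, 2 members (HIST2H4B and HIST1H4E) were lower, where 1.3% of all genes tested were.

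**Figure D2:**
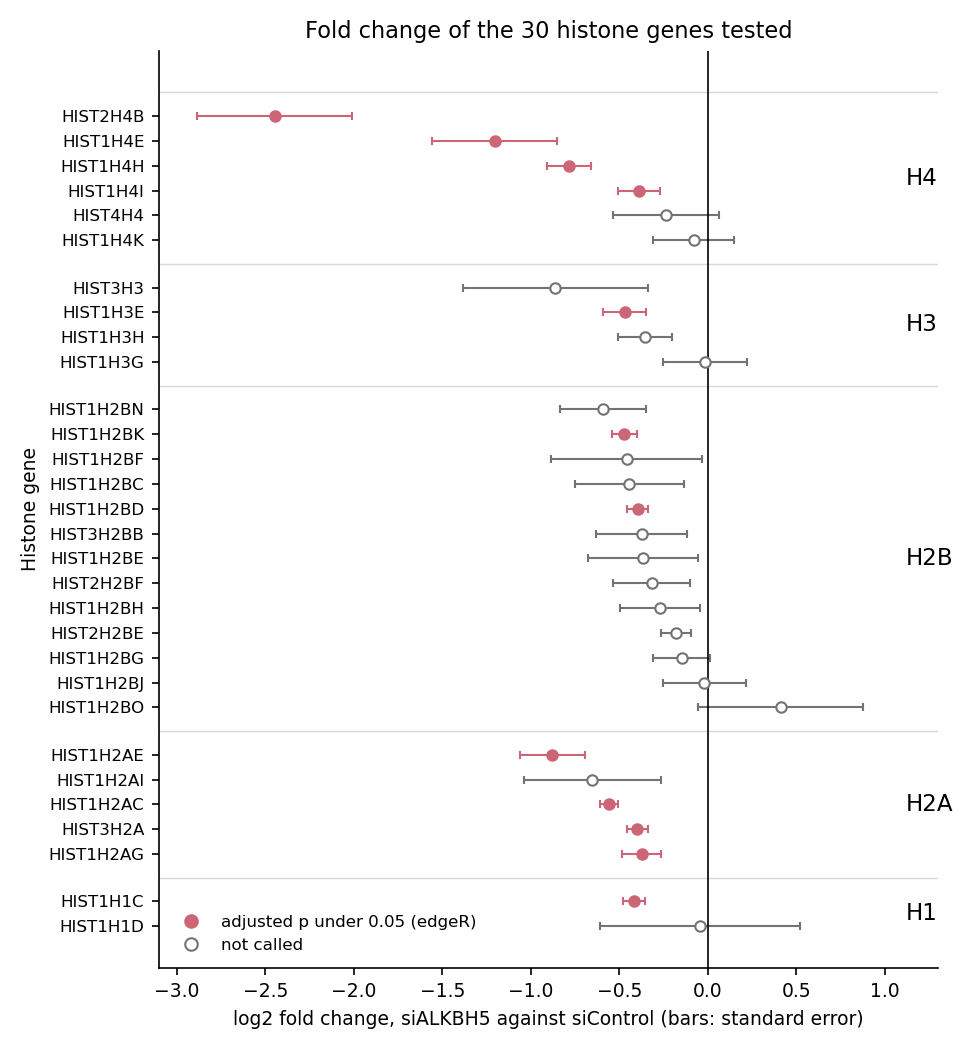
The log2 fold change of siALKBH5 against siControl is on the x axis for the 30 histone genes tested, grouped by histone type. Bars are standard errors derived from the F statistic of the edgeR test, and filled red points passed an adjusted p of 0.05. The 12 filled points lie between -2.45 and -0.37, and HIST1H2BO at 0.41 is the only point above 0.

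The calls followed the depth of the members. Of the 10 members with a mean of at least 200 counts, 9 were lower, and of the 20 with fewer, 3 were, a division chosen after the values were seen. Among all 8855 genes with a mean of at least 200 counts, 22.8% were lower, against 17.3% of all 15075 genes tested. Calls thus went with depth over all genes too. HIST2H2BE was the deeply counted member that was not called: this H2B gene of the HIST2 cluster had 423 and 470 counts in siControl, against 439 and 374 in siALKBH5, or 26.2 and 26.1 CPM against 23.5 and 22.7 CPM, with a log2 fold change of -0.18 ± 0.08 (SE, edgeR adjusted p = 0.0944).

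**Figure D3:**
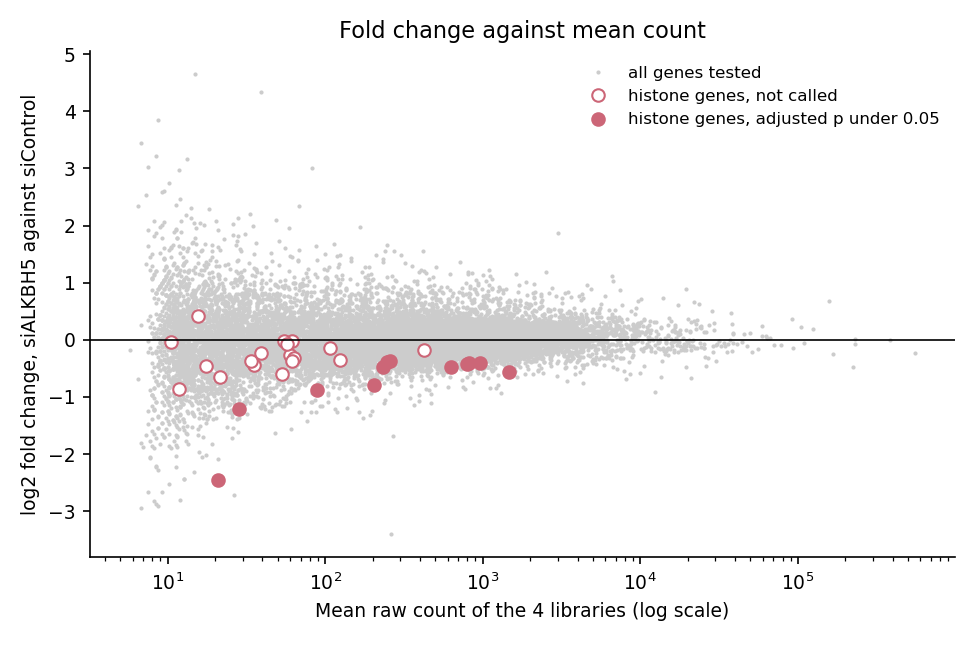
The log2 fold change of siALKBH5 against siControl (y axis) against the mean raw count of the 4 libraries (x axis, log scale) for the 15075 genes tested (grey) and the histone genes (red, filled where called lower). Of the 10 histone genes with a mean of at least 200 counts, 9 are filled, and 3 of the 20 with fewer are. Among all genes with such a mean, 22.8% were lower, and 17.3% of all genes tested were.

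Of the 2 linker histone genes tested, HIST1H1C, which encodes H1.2, was lower. It had 842 and 963 counts in siControl, against 720 and 672 in siALKBH5, or 52.2 and 53.4 CPM against 38.5 and 40.8 CPM. The log2 fold change was -0.42 ± 0.06 (SE, edgeR adjusted p = 2.49e-06), and the groups did not overlap. HIST1H1D (H1.3) had only 15 and 6 counts and then 8 and 13, with a log2 fold change of -0.04 ± 0.56 (SE), so that no difference was detectable at this depth. The other 4 H1 genes did not pass the filter.

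Among the 5 H2A genes tested, 4 were lower, where 17.3% of all genes tested were. HIST1H2AC, the member with the most counts, had 1544 and 1916 counts in siControl, against 1301 and 1115 in siALKBH5, or 95.7 and 106 CPM against 69.6 and 67.7 CPM. Its level in siALKBH5 was 67.9% of that in siControl, with a log2 fold change of -0.56 ± 0.05 (SE, edgeR adjusted p = 4.4e-11), and all values of one group lay apart from the other. HIST3H2A, an H2A gene of the small HIST3 cluster, had 1083 and 1079 counts and then 893 and 799, or 67.1 and 59.9 CPM against 47.7 and 48.5 CPM, a log2 fold change of -0.40 ± 0.06 (SE, edgeR adjusted p = 2.42e-06). Its control libraries differed more from each other than its siALKBH5 libraries did, and still stood above them.

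HIST1H2AE had the largest fold change of the H2A genes. Its counts were 111 and 116 in siControl and 62 and 65 in siALKBH5, or 6.88 and 6.44 CPM against 3.32 and 3.94 CPM, with a log2 fold change of -0.88 ± 0.18 (SE, edgeR adjusted p = 0.000254). HIST1H2AG had 286 and 289 counts and then 247 and 211, or 17.7 and 16.04 CPM against 13.2 and 12.8 CPM, with a log2 fold change of -0.37 ± 0.11 (SE, edgeR adjusted p = 0.00813). That call did not hold in DESeq2 (adjusted p = 0.0621) or without siControl replicate 1 (edgeR adjusted p = 0.103). HIST1H2AI, at 0.80 to 1.80 CPM, was not called, with a log2 fold change of -0.65 ± 0.39 (SE), and 57.7% of its 100-base windows also occur in HIST1H2AJ, between which reads could be split.

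H2B had the most members tested, 13, of which 2 were lower, where 17.3% of all genes tested were. HIST1H2BD had 882 and 958 counts in siControl, against 753 and 686 in siALKBH5, or 54.7 and 53.2 CPM against 40.3 and 41.6 CPM, with a log2 fold change of -0.40 ± 0.06 (SE, edgeR adjusted p = 3.81e-06). HIST1H2BK had 672 and 774 counts and then 568 and 506, or 41.6 and 43.0 CPM against 30.4 and 30.7 CPM, with a log2 fold change of -0.47 ± 0.07 (SE, edgeR adjusted p = 1.73e-06). In both genes the groups stood well apart. Of the 100-base windows of HIST1H2BK, 28.4% also occur in H2BFS, so a part of its counts is uncertain.

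The other 11 H2B genes had at most 5.33 CPM in any library except HIST2H2BE, described above, and HIST1H2BG, which had 6.20 and 6.88 CPM in siControl and 5.93 and 5.89 CPM in siALKBH5 (log2 fold change -0.15). The log2 fold changes of those not called were -0.59 for HIST1H2BN, -0.46 for HIST1H2BF, -0.44 for HIST1H2BC, -0.37 for HIST3H2BB, -0.37 for HIST1H2BE, -0.32 for HIST2H2BF, -0.27 for HIST1H2BH, -0.02 for HIST1H2BJ and 0.41 for HIST1H2BO. Their standard errors ran from 0.22 to 0.46. Over the fits lacking 1 library, the values ran from -0.79 to -0.05 for HIST1H2BF, -0.72 to -0.12 for HIST1H2BC and -0.71 to -0.11 for HIST1H2BE (log2). HIST1H2BN, at 4.03 and 3.39 CPM against 2.14 and 2.79 CPM, came nearest to the threshold (edgeR adjusted p = 0.0561) and passed it without siALKBH5 replicate 2 (edgeR adjusted p = 0.0388). HIST3H2BB turned on its control libraries, at 2.60 and 5.33 CPM: without siControl replicate 1 it was lower (log2 fold change -0.78, edgeR adjusted p = 0.00968), and without siControl replicate 2 the log2 fold change was 0.25.

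Of the 4 H3 genes tested, HIST1H3E was lower. It had 225 and 308 counts in siControl, against 202 and 193 in siALKBH5, or 13.9 and 17.1 CPM against 10.8 and 11.7 CPM, with a log2 fold change of -0.47 ± 0.12 (SE, edgeR adjusted p = 0.00255). The call did not hold without siControl replicate 2, the library with its highest value (edgeR adjusted p = 0.117). HIST1H3H had 134 and 141 counts and then 125 and 97, or 8.30 and 7.83 CPM against 6.68 and 5.89 CPM, with a log2 fold change of -0.35 ± 0.15 (SE, edgeR adjusted p = 0.07), and was not called although its groups did not overlap. HIST1H3G, with overlapping groups, was at -0.02 ± 0.24 (log2, SE). HIST3H3, which encodes the testis variant of H3, had at most 0.99 CPM and was at -0.86 ± 0.52 (log2, SE), or -1.51 to -0.45 with each library left out in turn.

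H4 had 6 members tested and 4 lower, where 17.3% of all genes tested were. The 4 included the members with the 2 largest fold changes of all. HIST1H4H had 242 and 270 counts in siControl, against 162 and 144 in siALKBH5, or 15.0 and 15.0 CPM against 8.66 and 8.74 CPM, so that the libraries of a group were nearly equal. Its log2 fold change was -0.78 ± 0.12 (SE, edgeR adjusted p = 4.02e-06). HIST1H4I had 273 and 277 counts and then 212 and 220, or 16.9 and 15.4 CPM against 11.3 and 13.4 CPM, with a log2 fold change of -0.39 ± 0.12 (SE, edgeR adjusted p = 0.00859). That call did not hold in DESeq2 (adjusted p = 0.0651), without siControl replicate 1 (edgeR adjusted p = 0.0879) or without siALKBH5 replicate 1 (edgeR adjusted p = 0.135).

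HIST1H4E was low, with 36 and 43 counts in siControl, against 14 and 21 in siALKBH5. At 2.23 and 2.39 CPM against 0.75 and 1.27 CPM, its log2 fold change was -1.20 ± 0.35 (SE, edgeR adjusted p = 0.0071), and the call did not hold in DESeq2 (adjusted p = 0.0548) or without siALKBH5 replicate 1 (log2 fold change -0.85, edgeR adjusted p = 0.121). Without that library 1 member, not 2, passed the fold threshold. HIST4H4 (-0.24 ± 0.30, log2, SE) and HIST1H4K (-0.08 ± 0.23, log2, SE) were not called, and all 100-base windows of HIST1H4K also occur in HIST1H4J.

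HIST2H4B had the largest fold change and the least certain identity. It had 32 and 38 counts in siControl, against 6 and 7 in siALKBH5, or 1.98 and 2.11 CPM against 0.32 and 0.42 CPM, with a log2 fold change of -2.45 ± 0.44 (SE, edgeR adjusted p = 3.15e-05). Its copy HIST2H4A did not pass the filter, and 97.1% of the 100-base windows of HIST2H4B occur in other genes, so the counting could have placed reads of either copy on the other. The counts of both copies summed to 40 and 51 in siControl and 14 and 16 in siALKBH5. With both merged into 1 row, an alternative added after the values were seen, the log2 fold change was -1.63 (edgeR adjusted p = 0.000293).

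**Figure D4:**
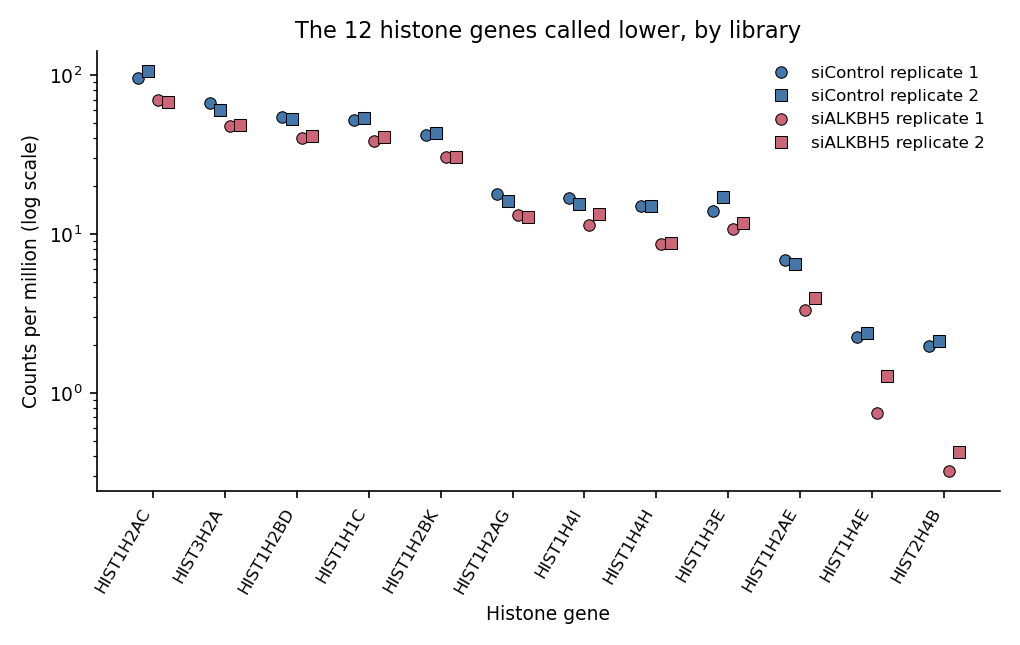
CPM (y axis, log scale) of the 12 histone genes called lower, in each of the 4 libraries (siControl blue, siALKBH5 red, circles replicate 1, squares replicate 2). In every gene both red points lie below both blue points, from 0.32 and 0.42 against 1.98 and 2.11 in HIST2H4B to 69.6 and 67.7 against 95.7 and 106 in HIST1H2AC.

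Levels between genes were compared per kilobase of the listed gene length, as the siControl mean with its SD over 2 libraries. HIST1H2BK was the highest at 111 ± 2.43 CPM per kilobase, followed by HIST1H1C at 82.3 ± 1.39 and HIST3H2A at 71.0 ± 5.72, and HIST1H2BD (61.9 ± 1.21) and HIST1H2AC (60.6 ± 4.51) did not differ beyond their spread. The next gene, HIST1H2AE, was at 13.1, and the lowest tested member, HIST1H2BN, at 0.68. HIST1H2BK and HIST1H1C have gene models of coding sequence only (381 and 642 bases), so that reads beyond the coding sequence had no model to be counted on and these levels do not have the same base as those of the longer models.

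Whether a member was tested at all went with its gene model, a length that the counting itself uses. Of the 38 members whose model extends beyond the coding sequence, 25 were tested, and of the 33 with coding sequence only, 5 were. Both groups of models were lower in siALKBH5. Members with the longer models summed to 366 and 372 CPM in siControl and 271 and 272 CPM in siALKBH5, or 73.6%, and those with coding sequence only to 102 and 104 CPM and then 76.8 and 78.6 CPM, or 75.6%. The 23 members with at least 100 bases annotated after the stem-loop, 20 of them tested and 8 lower, were at 73.4% of siControl. The other 48 members, 10 of them tested and 4 lower, were at 75.2%. The share of genes lower by edgeR was 17.3% over all genes tested.

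A poly-A signal hexamer (AATAAA or ATTAAA) stood in the last 50 bases of an annotated transcript in 22 members, where 82.0% of all protein-coding genes have one. Of these 22, 17 were tested and 8 lower, and their sum was 327 and 330 CPM in siControl and 242 and 240 CPM in siALKBH5, or 73.4%. The other 49 members, 13 of them tested and 4 lower, summed to 142 and 146 CPM and then 106 and 111 CPM, or 75.5%. The 46 members that share no 100-base window with another gene were at 73.1% of siControl (9 of 20 tested lower) and the 25 that do were at 77.2% (3 of 10). Beside these counts, 17.3% of all genes tested were lower.

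The promoters were read because many of these genes lie head to head and share the stretch between their starts. Promoters (250 bases before to 50 after the start, RefSeq, GRCh38.p14) were matched for 66 of the 71 members and searched on both strands for the box CCAAT, the TATA box as TATAAA and the octamer ATTTGCAT. CCAAT was found in 84.8% of the 66 against 35.7% of all 27305 RefSeq promoters, and in all promoters of H1 (6), H2A (16), H2B (18) and H3 (13) but in 3 of the 13 of H4. TATAAA was found in 44 of the 66, against 11.95% of all promoters. The octamer was found in 26 of the 66, of which 14 were H2B, 11 H2A and 1 H3, against 1.80% of all promoters. These are counts of promoters, not of separate sites. The windows of genes lying head to head can overlap, and a shared site is then counted for both genes. The octamer of HIST1H2AC, for example, is also that of HIST1H2BC (chr6:26123877-26124176, minus strand). The H3 match is not a separate sequence either. The promoter matched to HIST1H3D is the same stretch as that of HIST1H2AD (chr6:26199244-26199543, minus strand). It lies away from the listed HIST1H3D gene (chr6:26196840-26197250) and was counted under both types, also for CCAAT. The 3 promoters below are those of the called genes HIST1H2AC (chr6:26123922-26124221, plus strand), HIST1H2BK (chr6:27146809-27147108, minus strand) and HIST1H4H (chr6:26285485-26285784, minus strand), written 5′ to 3′ along the gene with every match of the 3 motifs on either strand in capitals, and the last has no match.

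HIST1H2AC: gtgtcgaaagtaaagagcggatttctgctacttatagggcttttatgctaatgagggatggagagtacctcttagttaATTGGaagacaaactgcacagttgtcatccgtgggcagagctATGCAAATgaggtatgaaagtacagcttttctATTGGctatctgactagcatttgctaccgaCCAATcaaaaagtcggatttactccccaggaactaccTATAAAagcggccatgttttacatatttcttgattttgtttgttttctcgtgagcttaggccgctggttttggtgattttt
HIST1H2BK: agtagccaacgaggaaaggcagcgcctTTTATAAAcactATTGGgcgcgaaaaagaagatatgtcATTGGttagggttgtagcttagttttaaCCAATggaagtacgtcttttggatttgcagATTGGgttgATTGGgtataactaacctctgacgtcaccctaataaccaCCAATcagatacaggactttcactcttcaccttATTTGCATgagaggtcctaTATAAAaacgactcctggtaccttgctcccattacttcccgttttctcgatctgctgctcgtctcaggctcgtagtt
HIST1H4H: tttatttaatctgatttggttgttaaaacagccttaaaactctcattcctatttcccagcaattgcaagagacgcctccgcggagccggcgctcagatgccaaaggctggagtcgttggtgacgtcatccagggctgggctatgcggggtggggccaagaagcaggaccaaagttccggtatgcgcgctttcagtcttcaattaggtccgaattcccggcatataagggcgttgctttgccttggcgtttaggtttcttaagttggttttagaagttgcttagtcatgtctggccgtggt

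In the HIST1H2BK promoter, matches of TATAAA on the opposite strands overlap and stand as 1 run of capitals. Both HIST1H2AC and HIST1H2BK hold all 3 motifs, and HIST1H4H was lower without any of them in this window. A match is a description of the sequence, and no factor was measured at it.

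Of 12 pairs of members whose starts lie head to head within 1000 bases, 11 joined an H2A with an H2B gene, and both members were tested in 4. In each of those pairs the H2A gene was called lower and the H2B gene was not. HIST1H2AC (-0.56) faced HIST1H2BC (-0.44) at 219 bases, HIST3H2A (-0.40) faced HIST3H2BB (-0.37) at 234, HIST1H2AE (-0.88) faced HIST1H2BG (-0.15) at 283 and HIST1H2AG (-0.37) faced HIST1H2BJ (-0.02) at 292, all as log2 fold changes. The depth of the partners differed: HIST1H2AC had a mean of 1469 counts and HIST1H2BC of 35.3, and HIST3H2A of 964 and HIST3H2BB of 61.8, whereas HIST1H2BG, with 108, was counted more than HIST1H2AE, with 88.5. The difference within a pair was not tested.

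The machinery that makes and processes histone mRNA was measured in full, with 29 of 29 genes tested, 6 lower and 6 higher, and a median log2 fold change of 0.003. Those counts are near the shares over all genes tested, 17.3% lower and 19.3% higher. DESeq2 called 3 of the 29 lower and 4 higher. NPAT, the activator of histone genes, had 379 and 454 counts in siControl, against 397 and 343 in siALKBH5, or 23.5 and 25.2 CPM against 21.2 and 20.8 CPM, and was not called (log2 fold change -0.21 ± 0.09, SE, edgeR adjusted p = 0.0567). SLBP, the stem-loop binding protein, had 37.7 and 34.6 CPM and then 34.4 and 38.1 CPM, with overlapping groups (log2 fold change 0.003 ± 0.07, SE). HINFP, an activator of H4 genes, was lower by little (log2 fold change -0.27, edgeR adjusted p = 0.00278), and CDK2, the kinase that with cyclin E acts on NPAT, was higher (0.43, edgeR adjusted p = 0.00018). No called gene of this list changed by 0.58 or more on the log2 scale.

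Poly-A selection was looked at through 12 structural RNAs that have no poly-A tail. Of their 13 rows, 10 were at 0 in every library and 2 (RNU4ATAC and SNORD3A) had at most 2 counts in a library. RN7SL2, an RNA of the signal recognition particle, was the only row tested, with 48 and 62 counts in siControl, against 35 and 25 in siALKBH5, and it was lower (log2 fold change -0.91 ± 0.27, SE, edgeR adjusted p = 0.00798), although DESeq2 did not call it. The list summed to 3.22 and 3.61 CPM in siControl and 1.92 and 1.52 CPM in siALKBH5, lower in the same libraries as the histone genes. This sum is nearly that of RN7SL2 alone, which had 2.98 and 3.44 CPM in siControl and 1.87 and 1.52 CPM in siALKBH5. The part of a difference in poly-A selection in the histone result was not tested.

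The replacement histones, mostly made outside S phase as well from mRNA with a poly-A tail, did not move one way. DESeq2 called 3 of them lower and 3 higher. By edgeR, 17.3% of all genes tested were lower and 19.3% higher. Of the 12 replacement histones, 11 were tested, and by edgeR 4 were lower and 4 higher, with a median log2 fold change of -0.09. The lower ones were H3F3A (-0.22), H3F3B (-0.20), H1F0 (-0.18) and H1FX (-0.18), and the higher ones H2AFX (0.56), CENPA (0.53), the centromere histone, H2AFV (0.26) and H2AFY (0.20). Of the histone chaperones, which escort histones to DNA, 18 were tested, 9 were higher and 1 lower by edgeR, with a median log2 fold change of 0.17. DESeq2 called 7 of the chaperones higher and 1 lower. ASF1B (0.95, edgeR adjusted p = 1.33e-11) and CHAF1B (0.85, edgeR adjusted p = 0.000272), which hand H3 and H4 to newly copied DNA, were the chaperones that rose by 0.58 or more.

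DNA replication genes went the other way from the replication-dependent histones. Over all genes tested, 19.3% were higher and 17.3% lower by edgeR. Of the 32 replication genes tested, 29 were higher and 0 lower, with a median log2 fold change of 0.68 (edgeR). At an unadjusted p under 0.05 again 0 were lower, and DESeq2 called 26 of them higher and 0 lower. Their summed level was 992 and 995 CPM in siControl and 1482 and 1473 CPM in siALKBH5. Of them, 19 rose by at least 0.58 on the log2 scale. In origin licensing and firing these were CDC45 (1.97), CDC6 (1.20), GINS2 (0.99), GINS4 (0.83), MCM6 (0.82), MCM7 (0.79), MCM5 (0.74), MCM2 (0.74) and CDT1 (0.69). At the fork they were PRIM1 (0.87), POLA2 (0.82), RFC2 (0.72), RFC4 (0.68), RFC3 (0.68) and FEN1 (0.59), and in nucleotide supply TK1 (1.15), TYMS (1.04), RRM2 (1.03) and RRM1 (0.66). The relation between both groups of genes across libraries was not tested.

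**Figure D5:**
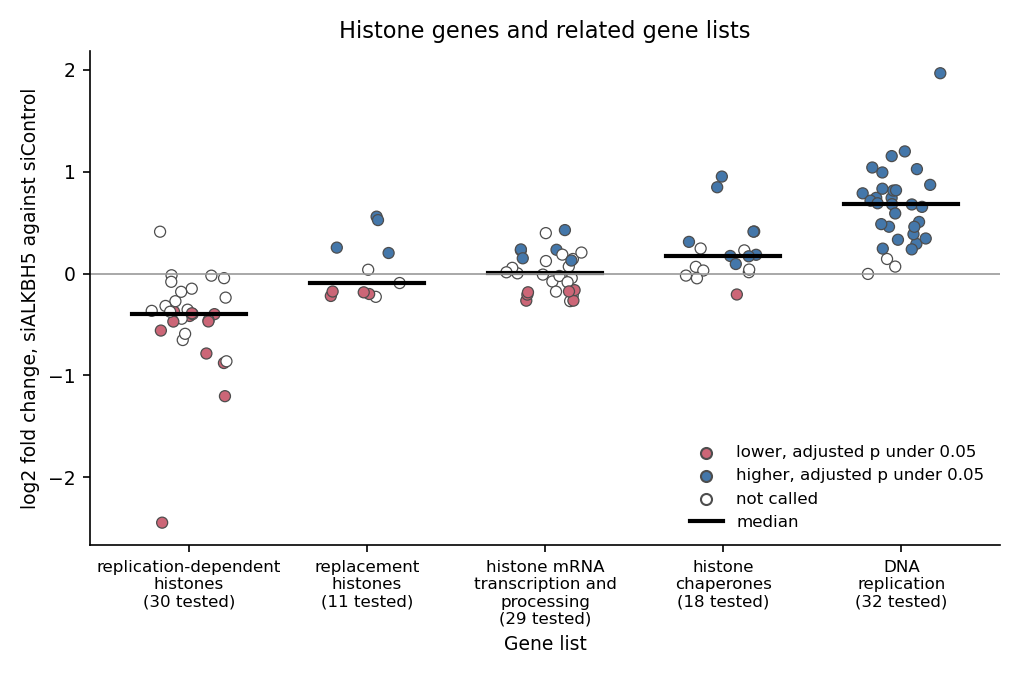
The log2 fold change of siALKBH5 against siControl (y axis) for the 30 replication-dependent histone genes tested and for 4 related gene lists, with points coloured by call (red lower, blue higher, white not called) and black bars at the medians. The medians are -0.39 for the replication-dependent histones, -0.09 for replacement histones, 0.003 for histone mRNA transcription and processing, 0.17 for chaperones and 0.68 for DNA replication.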

How the data were processed

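RNA-seq was made from poly-A RNA of HaCaT cells. The authors deposited raw counts per gene and FPKM for 4 libraries in tables that each pair 1 siControl with 1 siALKBH5 library. The submitters' processing notes name CASAVA, HISAT2 2.0.5, featureCounts 1.5.0-p3, DESeq2 1.20.0 and hg38, without roles. The settings for strand and for reads with several matches are not given in the sources used here. The deposited FPKM were not used, since they were scaled within each table, nor were the authors' columns of fold changes and p-values. The deposited gene lengths were used for levels per kilobase.

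Members and gene lists were chosen with earlier results of these data known. The counts of all genes were fitted with edgeR 4.0.16 (filterByExpr, TMM, glmQLFit and glmQLFTest, R 4.3.3), siALKBH5 against siControl, all 4 libraries, no covariates. P-values were adjusted by Benjamini-Hochberg over 15075 genes, and calls were made under an adjusted p of 0.05. The fit gives no standard error. Each SE printed with a log2 fold change is the size of that fold change divided by the square root of the test's F statistic. A fold threshold of 1 on the log2 scale was added as in the study's methods. The scripts were tested on simulated data. DESeq2 1.42.0, other scalings, filters, a replicate block and the omission of each library were the alternatives.

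Library totals were 16017502 to 18837807 counts, and the common biological coefficient of variation was 0.0253. Every member that passed the filter was named with its log2 fold change. Counts in all libraries were given for called members and for the 2 members of each type with the highest mean, and the highest 3 that did not pass the filter were named. Genes of the pathway lists were named if called and changed by 0.58 or more on the log2 scale, plus NPAT, SLBP and ALKBH5. One gene of the DNA replication list is not reported here and was left out of its counts. HINFP, CDK2 and the called replacement histones were named beyond that rule, after their values were seen. Sequences came from GENCODE 29 transcripts and RefSeq promoters, and a 100-base window counted as shared if another gene's transcript held it on either strand. Pairs of genes lay head to head if their starts were within 1000 bases.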

Additional observations from a re-analysis of the deposited data

How the results depend on the processing

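The number of histone genes called lower was 12, and it was 9 in DESeq2, 13 with library size only, 12 with DESeq2 size factors, with no filter and with a mean of at least 10 counts, and 10 to 13 when each library was left out in turn. The number called higher was 0 in all of them. At the fold threshold 2 genes passed, 1 in DESeq2 and 1 to 3 with a library left out. Of the 12 lower genes, 8 were called under every alternative.

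The log2 ratio of the summed counts was -0.43, and with library size only it was -0.455 for all members, -0.520 for H2A and -0.369 for H2B. With each library left out in turn it ran from -0.444 to -0.422 for all members, -0.453 to -0.365 for H1, -0.504 to -0.492 for H2A, -0.359 to -0.334 for H2B, -0.403 to -0.326 for H3 and -0.639 to -0.488 for H4.

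In 6 genes that were not called, the log2 fold change changed sign when a library was left out: it ran from -0.63 to 0.84 for HIST1H1D, -0.29 to 0.24 for HIST1H2BJ, -0.32 to 0.86 for HIST1H2BO, -0.78 to 0.25 for HIST3H2BB, -0.12 to 0.093 for HIST1H3G and -0.63 to 0.36 for HIST4H4. The cause was not tested, and these genes had few counts.

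Libraries with the same replicate number were deposited together, and the labels state no other link between them. Their deviations from the group means had a correlation of 0.0418 over genes. With 2 pairs, this cannot decide whether a culture or a preparation was shared. With the replicate number as a block, 13 histone genes were lower, HIST1H2BN being the one added, 2 passed the fold threshold, and the log2 ratio of the sum was -0.433.

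With 2 libraries a group, the estimates of the spread rest on few samples, and counting error limits members with under 50 counts most. Counting settings limit what can be said of near-identical copies.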
